A study of Homo sapiens with 54 samples.

Results

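The response to quinpirole, an agonist of D2-like dopamine receptors, was measured by RNA-seq in human neurons that resemble the medium spiny neurons (MSNs) of the striatum. The comparison held 2 libraries of cultures given 50 µM quinpirole (replicates 2 and 3) and 3 libraries of cultures given water (replicates 1 to 3), 5 of the 54 samples of the series. They were chosen by their labels and, within the quinpirole group, by the share of reads in introns. Replicate 1 of quinpirole was left out, because 96.7% of its 4121674 reads on genes lay in introns, against 14.6% to 18.5% in the other 5 libraries. One side of the comparison therefore had 2 libraries. All cultures came from 1 human embryonic stem cell line, H9 (WA09), with no transgene named in the labels, and were differentiated with activin A into a mixed culture. In the study's methods quinpirole stayed on the cultures for 1 h. The groups set beside it below were 3 libraries of the same experiment given 50 µM SKF82958, an agonist of D1-like receptors, and 2 experiments of H9 cultures 1 h after a single dose of dopamine, at 1 µM or 1 mM, each with 3 dopamine libraries and 3 libraries of cultures given PBS. The labels number the replicates but do not say whether they were separate differentiations, so the p-values measure the spread between these samples, which may be technical.

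Dopamine receptors are G protein-coupled receptors of 2 classes. D1-like receptors (DRD1 and DRD5) couple to Gs and Golf and raise cAMP, whereas D2-like receptors (DRD2, DRD3 and DRD4) couple to Gi and Go, inhibit adenylyl cyclase, open inward rectifier potassium channels through G beta gamma subunits and can also feed into ERK and AKT signaling. In the striatum the D2 receptor marks MSNs of the indirect pathway. Immediate early genes are transcribed within minutes of a stimulus without new protein synthesis, and many encode transcription factors (FOS, EGR and NR4A families), phosphatases or regulators of mRNA decay.

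The 5 libraries held 9013284 to 12889245 exon reads, the counts that were tested, and no pair of libraries had identical counts. At this depth 3 exon reads on a gene with 2000 exon bases equal a TPM (a level per exon length, scaled to the library) of 0.416 to 0.564, a floor that covers counting error only. Mitochondrially encoded genes took 11.6% of exon reads in quinpirole replicate 2 and 6.39% in replicate 3, on either side of the 7.88% to 8.19% of the water libraries. Because TPM is a share of each library, the TPM of nuclear genes was lower in quinpirole replicate 2 for this share alone, and the tests rest on normalized counts instead. The labelled cell type was checked against marker genes. All 18 striatal projection neuron markers on the list used were tested, among them BCL11B (67.2 to 98.6 TPM over the 5 libraries), which encodes CTIP2, and PPP1R1B (28.6 to 44.7 TPM), which encodes DARPP-32. The 7 D1-type markers summed to 23.5 to 31.4 TPM over the 5 libraries. Among them DRD1 was at 1.03 to 1.93 TPM, PDYN was under 1 TPM in all 5 and TAC1 was at 10.3 to 15.7 TPM. The 7 D2-type markers summed to 71.6 to 95.7 TPM. Among them PENK was at 1.99 to 3.03 TPM, GPR52 was under 1 TPM in all 5 and GRIK3 was at 51.3 to 72.2 TPM. Markers of some other cells were low. The 7 oligodendrocyte lineage markers summed to 54.5 to 65.1 TPM over the 5 libraries. The medial ganglionic eminence markers NKX2-1 and LHX8 had no exon read. They do not stand for their list of 11 medial ganglionic eminence and interneuron markers, which summed to 297 to 376 TPM. On that list 4 markers were under 1 TPM in all 5 libraries, while SST lay at 11.9 to 32.0 TPM. Other markers were higher. The cortical glutamatergic marker NEUROD6 lay at 541 to 759 TPM, the choroid plexus marker TTR at 2788 to 3448 TPM and the progenitor marker SOX2 at 227 to 300 TPM, so the libraries measure a mixed culture. In such bulk samples fewer cells of a type and less RNA per cell cannot be told apart.

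With edgeR's quasi-likelihood test and Benjamini-Hochberg adjustment, 27 of 16026 genes passed an adjusted p of 0.05 in quinpirole against water (0.168%), and all 27 were higher with quinpirole. No gene was called lower. Of the 27 called genes, 19 were on a list of 44 immediate early genes and 8 were not. The members of that list were chosen with earlier results of these data known, so the count is a description and not a test. At an unadjusted p under 0.05 there were 898 genes (5.6%), 486 higher (3.03%) and 412 lower (2.57%), and the median log2(fold change) of all genes tested was -0.003. In TPM, both quinpirole libraries lay above all 3 water libraries for each of the 27 called genes, which holds for 4.86% of all genes tested, while 7.33% of all genes tested had both quinpirole libraries below all 3 water libraries. Leaving out quinpirole replicate 3 raised the count from 27 to 93 genes, and leaving out any other library gave 22 to 34. NUAK2, ADAMTS1, EGR1, FOS, TAGLN, FOSL2, UTP14C, AC242842.3 and AC005944.1 lost their call when at least 1 of the 5 libraries was left out, and the other 18 did not.

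**Figure D1:**
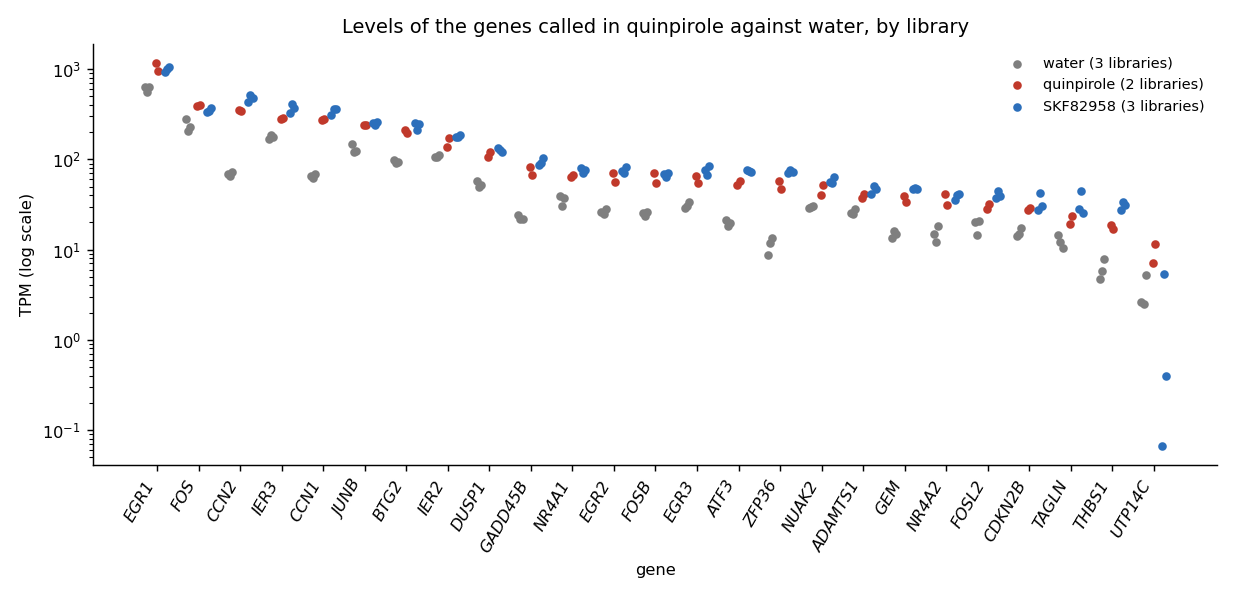
TPM on a log scale (vertical axis) of 25 of the 27 called genes (horizontal axis) in each library of water (grey), quinpirole (red) and SKF82958 (blue), each point being 1 library. The red points lie above the grey points for every gene shown, from EGR1 near the top of the scale to UTP14C at its lower end, and AC005944.1 and AC242842.3, which have libraries at 0, are not drawn.

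Several of the called genes encode secreted matrix proteins. CCN2 (connective tissue growth factor, chromosome 6, 131948176 to 131951372 of GRCh38, minus strand) stood at 349 and 341 TPM with quinpirole and at 69.2, 65.0 and 73.1 TPM with water. The groups were far apart, with both quinpirole values close to each other and the water values within a narrow band. CCN2 was 5.20-fold higher (log2(fold change) 2.38 ± 0.10, SE, edgeR adjusted p 8.6e-08). CCN1 (also CYR61, chromosome 1, 85580761 to 85583950), a secreted relative of CCN2, stood at 274 and 278 TPM with quinpirole and at 65.0, 61.7 and 68.5 TPM with water, a log2(fold change) of 2.14 ± 0.10 (SE, edgeR adjusted p 8.6e-08). THBS1, which encodes the matrix glycoprotein thrombospondin 1, rose from 4.73, 5.72 and 7.77 TPM to 18.5 and 16.9 TPM, a log2(fold change) of 1.62 ± 0.17 (SE, edgeR adjusted p 0.000647). In each of these genes both quinpirole libraries lay clearly above the highest water library. Smaller increases passed for ADAMTS1, a secreted metalloprotease (log2(fold change) 0.63, edgeR adjusted p 0.00792), and TAGLN, the actin-binding protein transgelin (0.82, edgeR adjusted p 0.0214).

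Among regulators of mRNA decay and growth, ZFP36 (tristetraprolin, which destabilizes AU-rich mRNAs, chromosome 19, 39406847 to 39409412) stood at 57.1 and 47.2 TPM with quinpirole against 8.71, 11.8 and 13.4 TPM with water. Its log2(fold change) of 2.28 ± 0.19 (SE, edgeR adjusted p 0.000104) was the largest after that of CCN2 among the immediate early genes. BTG2, an antiproliferative gene that acts on mRNA deadenylation, reached 214 and 196 TPM against 99.3, 90.2 and 92.9 TPM (log2(fold change) 1.18). GADD45B, a stress sensor upstream of p38 and JNK signaling, reached 83.0 and 66.9 TPM against 24.3, 22.0 and 21.8 TPM (1.78). DUSP1, a phosphatase that switches off MAP kinases (chromosome 5, 172768096 to 172771195), reached 107 and 120 TPM against 56.9, 48.8 and 52.0 TPM (1.15). In these 4 genes the 2 groups did not overlap and every water library was below 100 TPM. GEM, a small GTPase that inhibits calcium channels, had a log2(fold change) of 1.37, and IER3 and IER2, which are short immediate early genes, had 0.75 and 0.56.

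The transcription factors that rose came from the ATF and AP-1, EGR and NR4A families. ATF3, a stress-induced bZIP repressor (chromosome 1, 212565334 to 212620777), stood at 52.4 and 58.0 TPM with quinpirole and 21.4, 18.4 and 19.9 TPM with water, a log2(fold change) of 1.51 ± 0.11 (SE, edgeR adjusted p 1.2e-05). FOSB (chromosome 19, 45467995 to 45475179) stood at 70.4 and 54.5 TPM against 25.7, 23.5 and 25.8 TPM (1.39 ± 0.15, SE, edgeR adjusted p 0.000916). Its ∆FOSB form accumulates in striatal neurons under repeated drug exposure, and counts per gene do not separate that form. FOS (chromosome 14, 75278826 to 75282230) stood at 388 and 399 TPM against 280, 204 and 230 TPM, so that the groups were apart but the water libraries already held a high level (0.77 ± 0.12, SE, edgeR adjusted p 0.019). The other AP-1 genes called were JUNB (0.92) and FOSL2 (0.73). JUN, the main partner of FOS, stood at 223 and 207 TPM against 168, 153 and 145 TPM, which did not pass (0.52, edgeR adjusted p 0.205).

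EGR1, a zinc finger factor induced by ERK signaling (chromosome 5, 138465479 to 138469303), was the most abundant of the called genes, at 1170 and 966 TPM with quinpirole and 631, 554 and 637 TPM with water (log2(fold change) 0.89 ± 0.13, SE, edgeR adjusted p 0.0135). EGR2 stood at 70.6 and 56.1 TPM against 26.0, 24.7 and 28.1 TPM (1.34 ± 0.15, SE, edgeR adjusted p 0.00119), and EGR3 at 65.5 and 54.9 TPM against 29.2, 30.5 and 33.9 TPM (1.02). EGR4 did not pass (0.56, edgeR adjusted p 0.634). In all 3 called EGR genes quinpirole replicate 2 was above replicate 3, and both were above every water library. Of the NR4A orphan nuclear receptors, NR4A1 stood at 64.6 and 67.9 TPM against 39.2, 30.6 and 37.7 TPM (0.94) and NR4A2 at 41.3 and 31.5 TPM against 15.1, 12.2 and 18.2 TPM (1.34). NR4A3 stood at 58.7 and 47.7 TPM against 25.7, 27.9 and 36.8 TPM and was the nearest gene outside the threshold (0.90, edgeR adjusted p 0.0502), followed by SIK1B and VMP1.

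The called genes off the list also included a kinase and a cell cycle gene. CDKN2B, a cell cycle inhibitor, stood at 27.6 and 28.5 TPM against 14.1, 15.0 and 17.2 TPM (log2(fold change) 0.91, edgeR adjusted p 0.00455), and NUAK2, an AMPK-related kinase, at 40.3 and 51.6 TPM against 29.2, 30.0 and 30.3 TPM (0.66, edgeR adjusted p 0.00792). Both groups were apart in each. The remaining 3 are uncertain because they share reads with overlapping genes. UTP14C (7.04 and 11.4 TPM against 2.61, 2.51 and 5.17 TPM) lies over ALG11 on the same strand. AC005944.1, a long noncoding RNA antisense to TLE5 (58.8 and 32.0 TPM against 0, 1.72 and 10.5 TPM), cannot be told from its partner without strand. AC242842.3 overlaps NOTCH2NLC and NBPF19, and had 27 and 12 exon reads with quinpirole (under 1 TPM) and 0 in all 3 water libraries, so no fold change is given.

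The plot of the 44 immediate early genes, a list chosen with earlier results of these data known, shows how uneven the list was. All 44 were tested, 19 were called higher (0.168% of all genes), and the median log2(fold change) was 0.56 against -0.003 over all genes tested. At an unadjusted p under 0.05, 32 were higher and 1, SIK1 (-0.29), was lower, where 3.03% and 2.57% of all genes were. In TPM, 32 of the 44 had both quinpirole libraries above all water libraries, as did 4.86% of all genes. The summed level of the list was 5539 and 5551 TPM with quinpirole and 3656, 3357 and 3586 TPM with water. The genes not called include some of the abundant ones. JUND, a constitutive AP-1 member, stood at 436 and 552 TPM against 514, 509 and 500 TPM. The neuronal activity genes NPAS4, ARC and HOMER1, named after their values were seen, had log2(fold changes) of -0.06 (95% CI -0.36 to 0.25), -0.02 (-0.30 to 0.25) and 0.02 (-0.21 to 0.25), all 3 with overlapping groups. NPAS4, a factor induced by calcium entry, was at 131 and 132 TPM with quinpirole and 171, 116 and 138 TPM with water. Of 14 activity-induced secreted and synaptic genes, such as VGF and SCG2, all 14 were tested, none was called and the median was -0.05, with VGF at -0.13 and SCG2 at 0.10.

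**Figure D2:**
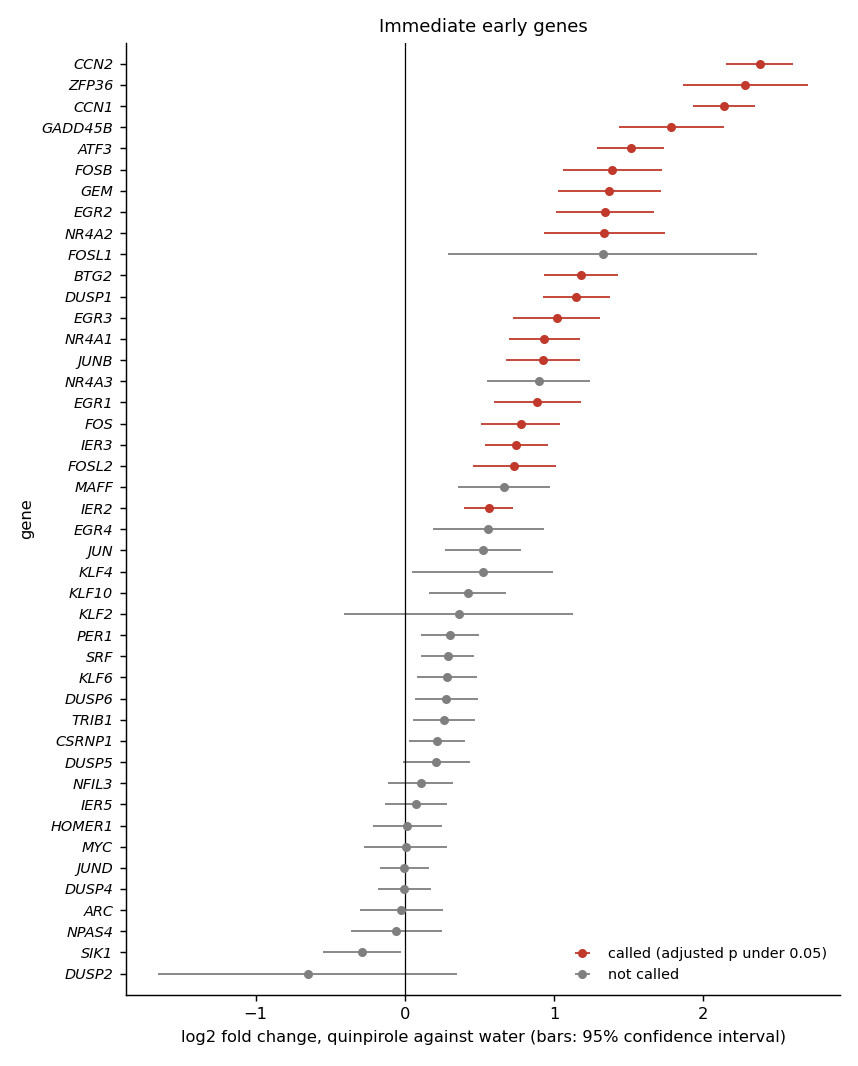
Log2(fold change) of quinpirole against water (horizontal axis) for the 44 immediate early genes (vertical axis), with bars for the 95% confidence interval and red points for the 19 called genes. CCN2, ZFP36 and CCN1 lie above 2, whereas the intervals of NPAS4, ARC, HOMER1, JUND and MYC span 0.

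Intron reads gave a second readout of the same libraries and were added after the exon results had been seen. Of the 27 called genes, 21 could be tested on intron reads and 19 of these had a positive log2(fold change), and 5 had under 10 intron reads in every library. The 27 had been picked as higher in exon reads of these same libraries, so this count is not an independent check. Over the 13754 genes tested on both exon and intron reads, the median intron log2(fold change) was -0.018. On intron reads alone 10 of 17036 genes were called (0.0587%), and 4 of the 27 were among them. ATF3 had 175 and 235 intron reads with quinpirole and 75, 44 and 54 with water (1.90, edgeR adjusted p 0.000948). THBS1 had 67 and 64 against 14, 13 and 19 (2.18, edgeR adjusted p 0.0102), CCN2 62 and 70 against 19, 11 and 19 (2.10, edgeR adjusted p 0.010), and GEM 146 and 157 against 46, 69 and 41 (1.61, edgeR adjusted p 0.0489). The 2 groups were apart in all 4. IER2 had 26 and 56 intron reads against 66, 52 and 44, where the groups overlapped and the exon increase was not seen (-0.36).

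Promoter windows from RefSeq (GRCh38.p14, 250 bases before to 50 after each start) were matched by symbol for 18 of the 27 called genes, and 4 motifs were searched on both strands. The motifs were the CArG box bound by SRF, the cAMP response element (TGACGTCA), the AP-1 site (TGANTCA) and the TEAD core (GGAATG), none of which contains another. The CArG box was found in 1 of the 18 (EGR1) and in 1.29% of the 35116 windows in the table, the cAMP response element in 1 (DUSP1) and in 1.85%, the AP-1 site in 2 (UTP14C and FOSL2) and in 7.71%, and the TEAD core in 7 and in 14% of all windows. In the 32 windows matched for the immediate early list, the shares in the same order were 6.25%, 9.38%, 3.12% and 12.5%, the last below that of all windows. The TEAD core windows were those of CCN2, ZFP36, THBS1, EGR2, CDKN2B, NUAK2 and UTP14C. A match is a description of letters and not a bound site. The stretches below, written 5′ to 3′ on the gene's strand with the matches in capitals, are shown because they hold the CArG box, the cAMP response element or, for the 3 genes with the smallest p, the TEAD core on either strand.
EGR1, chr5:138465359-138465420, plus strand: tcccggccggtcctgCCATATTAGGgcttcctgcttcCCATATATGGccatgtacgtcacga
DUSP1, chr5:172771298-172771335, minus strand: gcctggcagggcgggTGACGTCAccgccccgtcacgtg
CCN2, chr6:131951447-131951556, minus strand: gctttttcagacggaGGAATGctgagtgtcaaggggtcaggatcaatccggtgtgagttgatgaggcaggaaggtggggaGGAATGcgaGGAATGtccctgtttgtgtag
ZFP36, chr19:39406622-39406657, plus strand: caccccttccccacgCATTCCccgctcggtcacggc
THBS1, chr15:39581018-39581053, plus strand: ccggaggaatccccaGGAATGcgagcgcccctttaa
The EGR1 stretch holds 2 CArG boxes and the CCN2 stretch holds 3 TEAD cores, while ZFP36 and THBS1 hold 1 core each, the former on the opposite strand.

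The receptors that quinpirole acts on were expressed at low levels, and no difference between the groups passed the test. DRD2 stood at 7.97 and 8.12 TPM with quinpirole and 9.10, 9.43 and 7.54 TPM with water (log2(fold change) -0.07, 95% CI -0.45 to 0.31). DRD4 stood at 9.37 and 9.51 TPM against 9.61, 11.9 and 11.2 TPM (-0.15, 95% CI -0.67 to 0.37), and DRD3 at 3.07 and 2.61 TPM against 4.72, 2.45 and 3.74 TPM (-0.31, 95% CI -1.05 to 0.42). In order of level per exon length over the 5 libraries, DRD4 and DRD2 had neighboring ranges (9.37 to 11.9 and 7.54 to 9.43 TPM) that met, and DRD3 lay below both. Of the D1-like receptors, DRD1 stood at 1.16 and 1.03 TPM against 1.58, 1.93 and 1.64 TPM (-0.59, 95% CI -1.40 to 0.21) and DRD5 at 0.910 and 1.58 TPM against 1.28, 1.23 and 1.76 TPM (-0.15, 95% CI -1.16 to 0.86). The DRD1 values were the lower ones in both quinpirole libraries, yet the interval spans 0. The adenosine receptors ranged from ADORA1 at 37.4 to 52.7 TPM down to ADORA2B at 2.70 to 5.76 TPM and ADORA2A, the partner of DRD2 in indirect pathway neurons, at 0.258 to 4.66 TPM. The 2 extremes of ADORA2A were the 2 quinpirole libraries, and ADORA3 had 0 TPM in all libraries but 1. None of the 8 receptors tested was called, and their median log2(fold change) was -0.15.

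No gene on the Gi/o list or on the cAMP and PKA list, the lists of signaling below the receptors examined here, was called either. Of 39 Gi/o signaling genes (G protein subunits, RGS proteins, receptor kinases, arrestins, channels gated by G beta gamma, and AKT and GSK3 kinases), all 39 were tested, with a median of -0.07. One, RGS8, which speeds the shutdown of Gi and Go, was lower at an unadjusted p under 0.05 (-0.23, edgeR adjusted p 0.859). The abundant members GNB1, GNAS and GNG2 had log2(fold changes) of -0.03, -0.003 and -0.04, with intervals no wider than -0.22 to 0.18. GNG3, also abundant, had -0.12 with a wider interval (95% CI -0.40 to 0.15). Of 35 cAMP and PKA genes all were tested and the median was -0.04. The adenylyl cyclase ADCY5, the main striatal form, stood at 27.4 and 37.1 TPM against 35.1, 35.1 and 33.5 TPM (-0.07, 95% CI -0.25 to 0.12). PKIA and PRKAR1A, an inhibitor and a regulatory subunit of PKA, were at -0.07 and 0.04. DARPP-32 (PPP1R1B) was at 28.6 and 37.0 TPM against 35.7, 44.7 and 39.0 TPM (-0.24, edgeR adjusted p 0.886).

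Although no gene was called lower, the genes with the smallest p on that side were examined. They are given as values that did not pass. TXNIP, a thioredoxin inhibitor that responds to glucose, came nearest, at 65.3 and 113 TPM with quinpirole against 130, 170 and 149 TPM with water (log2(fold change) -0.73, edgeR adjusted p 0.0547). Its groups did not overlap, but the gap between the quinpirole libraries was wider than the gap from the higher one to the lowest water library. SHISA8 stood at 0.513 and 0.802 TPM against 4.34, 5.06 and 3.48 TPM (-2.63, edgeR adjusted p 0.134), and DLK1, an imprinted Notch-related gene, at 24.1 and 31.8 TPM against 58.3, 40.2 and 41.4 TPM (-0.71, edgeR adjusted p 0.164). The glycolytic aldolase ALDOC stood at 20.0 and 25.5 TPM against 32.2, 31.6 and 35.8 TPM (-0.51, edgeR adjusted p 0.217), and BNIP3, a mitophagy receptor under HIF control, at 25.0 and 38.0 TPM against 42.5, 40.8 and 48.7 TPM (-0.46, edgeR adjusted p 0.248). MAGED4 (-0.42) and Z94721.2, a long noncoding RNA (-1.73), were the other single genes. The remaining 3 of the 10, AL669918.1, AP000295.1 and CHKB-CPT1B, overlap or read through other genes and are uncertain.

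Other lists are described by their counts. Over all genes tested 0.168% were called, all higher, and 3.03% were higher and 2.57% lower at an unadjusted p under 0.05, with a median of -0.003. Of 20 glycolysis genes all were tested, none was called, and 8 were lower and 0 higher at an unadjusted p under 0.05, with a median of -0.16. The summed glycolysis level was 3509 TPM in quinpirole replicate 2 and 4849 TPM in replicate 3, with 4620 to 4816 TPM in the water libraries. These sums are not corrected for the mitochondrial share, which was larger in replicate 2 and smaller in replicate 3 than with water. They therefore do not show which quinpirole library was lower, and the log2(fold changes) rest on normalized counts instead. The part of the mitochondrial share in the result was not tested. The 13 mitochondrially encoded genes were all positive and none was called (median 0.22), with a summed level of 401394 and 257206 TPM against 298204 to 307864 TPM, which is high in replicate 2 and low in replicate 3. Of 22 collagen and matrix genes, 1 was called (THBS1) and the median was 0.16. COL1A1 stood at 46.5 and 36.4 TPM against 32.8, 32.1 and 28.1 TPM and did not pass (0.49, edgeR adjusted p 0.638). Of 7 mesenchymal markers tested, 1 was called (TAGLN), 4 were higher at an unadjusted p under 0.05 and the median was 0.46. The summed level of the 9 markers on that list was 143 and 131 TPM with quinpirole and 113, 101 and 99.0 TPM with water. Their part in the higher CCN1, CCN2 and THBS1 was not tested. NR4A2 is also the 1 called gene among 3 tested midbrain dopaminergic markers, where TH was at -0.69 (edgeR adjusted p 0.816).

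None of the remaining lists held a called gene. The medians were -0.06 for 18 striatal projection neuron markers, -0.36 for 5 D1-type markers, -0.06 for 6 D2-type markers, -0.12 for 9 GABAergic neuron genes and -0.03 for 12 pan-neuronal genes. BCL11B was at 0.11 and the D1-type peptide gene TAC1 at -0.36 (10.3 and 11.2 TPM against 14.7, 12.3 and 15.7 TPM). Of the lists for other cells in the culture, the cortical glutamatergic markers had a median of 0.0025 over 8 genes with a summed level of 1435 and 1812 TPM against 1472 to 1837 TPM, the radial glia and progenitor markers 0.07 over 12, the choroid plexus markers 0.22 over 4 and the astrocyte markers 0.04 over 7. NKX2-1 and LHX8, which are markers of the medial ganglionic eminence, had no exon read in any of the 5 libraries. The interneuron marker SST stood at 11.9 and 14.9 TPM against 32.0, 12.3 and 21.8 TPM. The medians for cell cycle genes (0.07), heat shock genes (0.05), Wnt and beta-catenin targets (0.04), glutamate and GABA-A receptors (-0.02), HIF targets (-0.03), cholesterol synthesis genes (-0.05), ATF4 and unfolded protein response genes (-0.05) and oligodendrocyte lineage markers (-0.10) lay within 0.1 of that of all genes. Of the medial ganglionic eminence and interneuron, endothelial and blood, and pluripotency lists only 5, 3 and 1 genes could be tested, with medians of -0.02, 0.22 and -0.06.

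**Figure D3:**
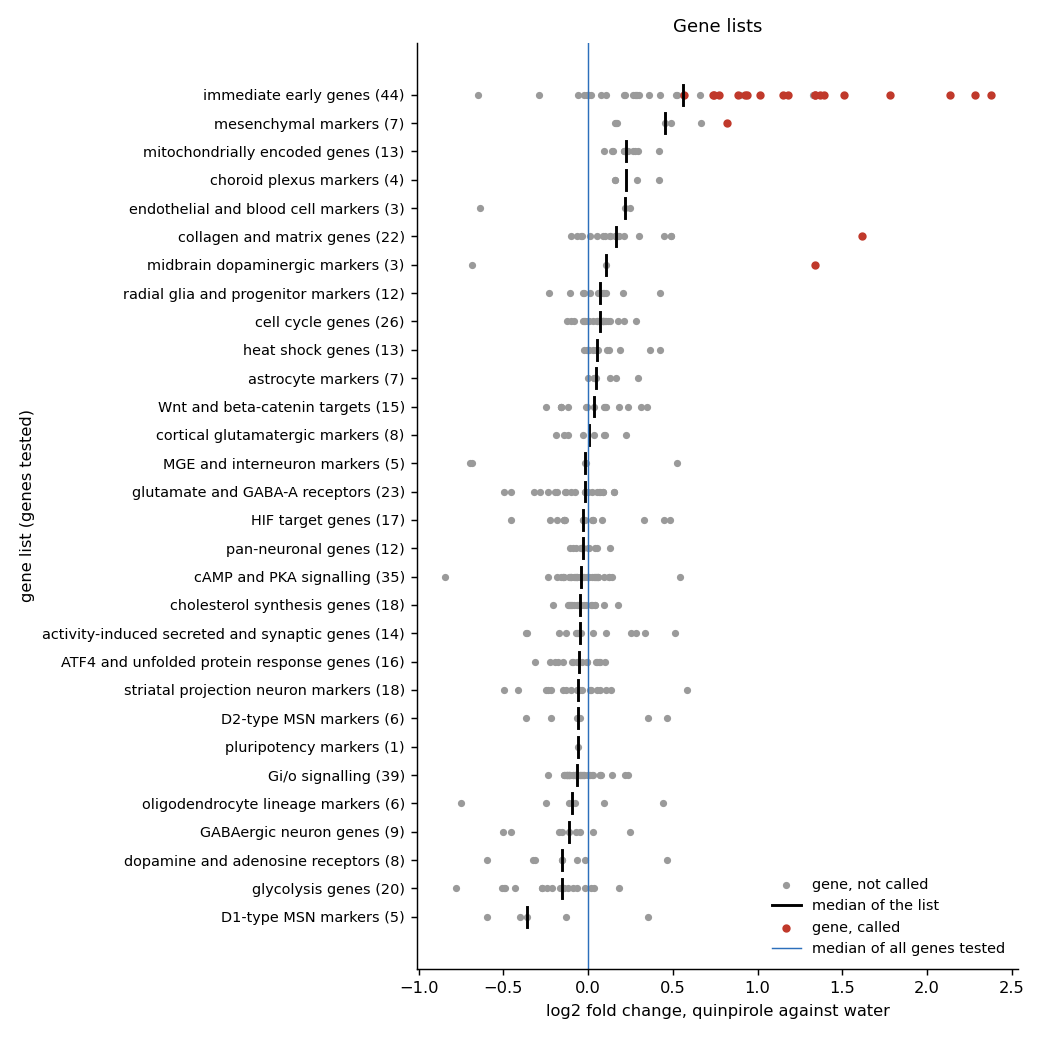
Log2(fold change) of quinpirole against water (horizontal axis) of each tested gene (points, red where called) in 30 gene lists (vertical axis, with the number of genes tested), with a black bar at the median of each list and a blue line at the median of all genes tested (-0.003). The red points fall on the immediate early list, apart from TAGLN and THBS1, and NR4A2 is drawn on the midbrain list as well.

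Quinpirole and the D1-like agonist SKF82958 were compared directly at the same labelled dose of 50 µM, in 1 fit with the water libraries. The incubation time of SKF82958 is not given in the sources used here. This was the 1 pair of agonists compared. With edgeR's quasi-likelihood test 0 of 16343 genes were called (0%), and 748 had an unadjusted p under 0.05 (4.58%), whereas DESeq2's Wald test called 2. Without quinpirole replicate 3 edgeR called 40, without SKF82958 replicate 2 it called 1 (UTP14C), without SKF82958 replicate 3 it called 2 (ARRDC3 and COMMD3-BMI1), and without each of the other 5 libraries 0. The gene with the smallest p was ARRDC3, an arrestin domain gene, at 43.9 and 50.9 TPM with quinpirole, 89.9, 80.6 and 74.4 TPM with SKF82958 and 45.9, 52.4 and 57.4 TPM with water (difference -0.66, 95% CI -0.86 to -0.45, edgeR adjusted p 0.121). Its quinpirole and SKF82958 libraries did not overlap. SHISA8 was lower with quinpirole than in either other group (-2.77, edgeR adjusted p 0.323), and DDIT4, a stress-induced inhibitor of mTORC1, stood at 34.6 and 40.1 TPM against 63.6, 55.5 and 55.7 TPM with SKF82958. These 3 genes were among the 5 with the smallest p and were named after their values were seen. A p that misses the threshold does not show that the agonists acted alike, so the intervals are given.

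None of the 27 genes called in quinpirole against water was called between the agonists. Of the 27, 11 had an unadjusted p under 0.05, as did 4.58% of all genes tested. A negative difference, that is a lower level with quinpirole, was found in 20, where the median difference over all genes was 0.001. The 27 were picked as high in these same quinpirole libraries, so these counts are a description and not a test. For CCN1 the difference was -0.18 (95% CI -0.38 to 0.01), with SKF82958 at 312, 362 and 359 TPM. For CCN2 it was -0.33 (95% CI -0.54 to -0.12), with SKF82958 at 437, 518 and 481 TPM. For THBS1 it was -0.66 (95% CI -0.98 to -0.34), with SKF82958 at 27.5, 33.8 and 31.1 TPM. In CCN2 and THBS1 every SKF82958 library was above both quinpirole libraries, without passing the test. The differences of EGR1 (0.24, 95% CI -0.03 to 0.51) and FOS (0.30, 95% CI 0.05 to 0.54) were positive, and those of FOSB (0.04, 95% CI -0.25 to 0.33) and DUSP1 (-0.04, 95% CI -0.23 to 0.15) lay near 0. Over the 44 immediate early genes the median difference was -0.10, with none called. Both agonists were compared with the same water libraries, so their own changes are given only side by side. In that fit SKF82958 against water gave 100 genes higher (0.612%) and 2 lower (0.0122%), with log2(fold changes) of 2.71 for CCN2, 2.32 for CCN1, 0.65 for EGR1 and 0.48 for FOS. UTP14C, one of the uncertain genes, was at 0.066, 5.32 and 0.393 TPM with SKF82958.

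**Figure D4:**
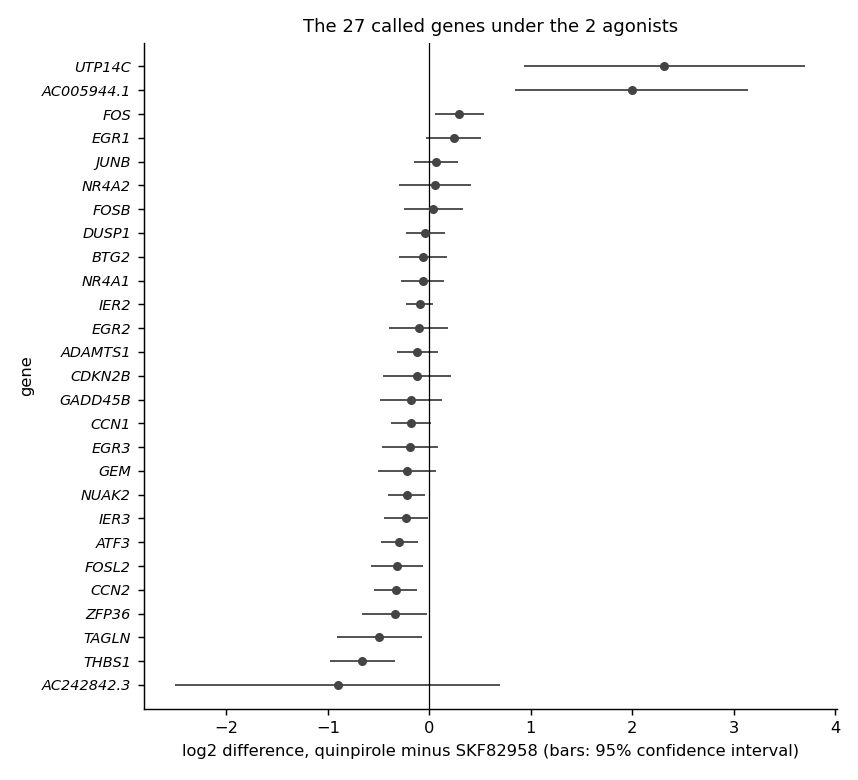
Log2 difference of quinpirole minus SKF82958 (horizontal axis), with bars for the 95% confidence interval, for the 27 genes called in quinpirole against water (vertical axis). The differences of 20 genes are negative, the largest intervals belong to the uncertain genes AC242842.3, UTP14C and AC005944.1, and no difference passed the test.

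The response to quinpirole was then set beside the response 1 h after dopamine, each against its own controls, with an interaction term. The doses differ (50 µM quinpirole, 1 µM or 1 mM dopamine), and so do the experiment and the vehicle, so that drug, dose and experiment cannot be told apart. The control levels differed first. EGR1 stood at a mean of 10.1 ± 2.79 TPM (SD, n = 3) in the PBS libraries of the 1 µM experiment, 17.0 ± 2.78 TPM (SD, n = 3) in those of the 1 mM experiment and 607 ± 46.2 TPM (SD, n = 3) in the water libraries. FOS stood at 7.09, 16.1 and 238 TPM in the same order, and FOSB at 0.597, 0.586 and 25.0 TPM. NPAS4 stood at 0.223, 2.12 and 116 to 171 TPM. The water cultures thus held more of these genes than the PBS cultures of either dopamine experiment. CCN2 (14.9, 20.2 and 69.1 TPM) and ATF3 (14.3, 12.9 and 19.9 TPM) differed less. Mitochondrially encoded genes took 4.25% to 12.4% of exon reads in the PBS libraries of the 1 µM experiment and 2.72% to 2.95% in those of the 1 mM experiment.

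**Figure D5:**
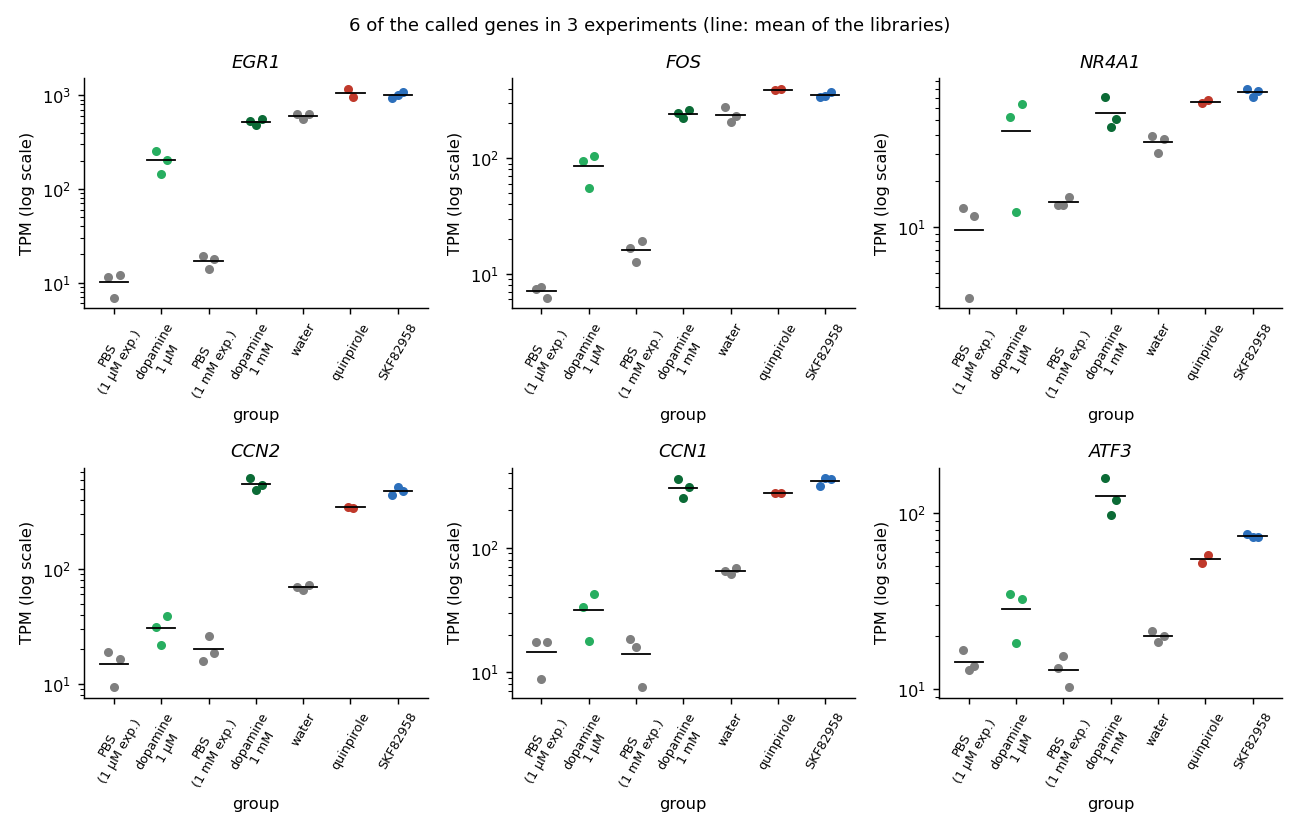
TPM on a log scale (vertical axis) of 6 called genes in 7 groups (horizontal axis), with 1 point per library and a line at the mean of each group. EGR1 and FOS in the water libraries (means of 607 and 238 TPM) lie far above both PBS groups, whereas ATF3 in water (19.9 TPM) lies near them.

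Against 1 µM dopamine, the effect of quinpirole differed in 50 of 17027 genes (0.294%), 30 with a higher and 20 with a lower effect of quinpirole. Of the 27 called genes 3 had a lower effect (EGR1, EGR2 and FOS) and 0 a higher one, where the lower calls made up 0.117% of all genes. These effects are log2(fold changes) over each experiment's own controls, whose levels differed, and do not rank the levels reached. In TPM, EGR1 stood at 1170 and 966 with quinpirole and at 631, 554 and 637 with water. EGR1 was at 256, 143 and 206 TPM after dopamine and 11.5, 6.90 and 11.9 TPM with PBS, and the difference in log2(fold change) was -3.41 ± 0.30 (SE, edgeR adjusted p 0.00188). FOS had a difference of -2.72 ± 0.32 (SE, edgeR adjusted p 0.00527). EGR2 had 0 TPM in all 3 PBS libraries and 5.35 to 6.16 TPM after dopamine, so its difference depends on the prior count and is not given. SOX21, a progenitor factor, rose with dopamine from 22.9 to 29.4 TPM to 145 to 248 TPM and stood at 32.9 and 62.8 TPM with quinpirole and 45.6 to 61.2 TPM with water (difference -2.97, edgeR adjusted p 0.0019). In the other direction were GPNMB, a lysosomal glycoprotein, at 0.738, 0.333 and 0.226 TPM after dopamine against 5.30, 3.75 and 5.73 TPM with PBS (3.88, edgeR adjusted p 0.0019), PMCH, a neuropeptide precursor (4.27), and ALOX15, a lipoxygenase (3.40). The quinpirole log2(fold changes) of these 3 genes were 0.29, 0.26 and 0.30, beside -3.58, -4.01 and -3.10 for 1 µM dopamine against PBS. The count of 50 genes rested on single libraries, being 7 to 19 without any 1 of the 5 quinpirole and water libraries, 20 to 74 without a PBS library, 32 or 42 without dopamine replicate 1 or 3 and 309 without dopamine replicate 2. EGR1, EGR2, SOX21 and GPNMB were called without each of the 11 libraries in turn, FOS in 9 of these fits and PMCH and ALOX15 in 4. CCN2 (1.34, edgeR adjusted p 0.056) and CCN1 (1.07, edgeR adjusted p 0.282) had larger changes with quinpirole than with 1 µM dopamine and did not pass, although CCN2 passed without dopamine replicate 2 (edgeR adjusted p 0.0249) and without PBS replicate 2 (edgeR adjusted p 0.0332).

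Against 1 mM dopamine, 3722 of 17436 genes differed (21.3%), 1927 with a higher and 1795 with a lower effect of quinpirole (11.1% and 10.3%). Of the 27 called genes 20 had a lower and 3 a higher effect. CCN2 stood at a mean of 545 TPM after 1 mM dopamine (n = 3), against 20.2 TPM with PBS, and the difference was -2.41. The differences were -2.35 for CCN1, -1.80 for ATF3, -4.09 for EGR1 and -3.18 for FOS, all called. DUSP1 (-0.39, edgeR adjusted p 0.0455) was near the threshold, and BTG2 (-0.38), GEM (-0.14) and THBS1 (0.30) were not called. The 3 with a higher effect of quinpirole were NR4A2 (1.22), which was at 27.9 TPM with PBS and 29.4 TPM after dopamine, and the uncertain genes UTP14C and AC242842.3. Over the 44 immediate early genes the median difference was -0.99, with 30 lower and 2 higher calls. The further genes with the largest differences had few reads. AMIGO3 and RSC1A1 had 0 TPM in all 3 PBS libraries and 3.55 to 7.93 TPM after 1 mM dopamine, PCDHA1 had 0 TPM with PBS and at most 1.36 TPM after dopamine, ZSWIM8-AS1 had 0 TPM after dopamine and 1.66 to 2.53 TPM with PBS, and AP001781.2 was at most 2.05 TPM in any library, so no fold change is given for them.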

How the data were processed

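The authors trimmed the reads, mapped them in CLC Genomics Workbench to GRCh38 (hg38) and deposited 1 table of 60676 genes per library, with counts of exon, intron and total reads and with TPM. The deposited counts are raw, and the deposited TPM is scaled by exon length and library. The sequencing provider of each library and the strand used in counting are not given in the sources used here. The per-library tables of 21 libraries were used, and the deposited tables of the other samples were not used here.

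The test on exon counts was edgeR's quasi-likelihood test (edgeR 4.0.16, R 4.3.3, filterByExpr with minimum count 10 and minimum total 15, TMM, Benjamini-Hochberg over all genes tested). A gene was called at an adjusted p under 0.05. Standard errors follow from the size of the log2(fold change) and its F statistic, and 95% intervals use the t distribution with the fit's degrees of freedom. Quinpirole against water used 5 libraries, quinpirole against SKF82958 used 8, and each interaction with dopamine used 11. DESeq2 1.42.0 was an alternative. The script was tested on simulated counts. Python 3.11.15, pandas 2.3.3, numpy 2.4.6 and matplotlib 3.10.9 made tables and figures.

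Named genes were, in each direction, the 10 called genes with the largest change, a mean TPM of at least 1 in the higher group and no overlap between the groups (places left were filled by the smallest p), called and abundant members of gene lists, all dopamine and adenosine receptors, and 3 genes in each direction of each other comparison. The remaining called genes are named as well. The members, lists and tests were chosen with earlier results of these data known.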

Additional observations from a re-analysis of the deposited data

Results flagged for a closer look

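The effect of quinpirole against water differed from that of dopamine against PBS by the interaction term of edgeR's quasi-likelihood test in 50 genes at 1 µM dopamine and in 3722 genes at 1 mM dopamine. These are differences between groups under a drug and its own vehicle. The experiments differ in dose, vehicle and control level (EGR1 at 607 TPM in water against 10.1 and 17.0 TPM in PBS), and these cannot be told apart from the drug.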

How the results depend on the processing

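With 2 quinpirole libraries, single libraries weigh on the count. Quinpirole against water called 27 genes, 22 to 93 when each library was left out in turn (93 without quinpirole replicate 3, of which 26 were among the 27, and 34 without replicate 2, of which 21 were), 177 with no filter on low counts (116 higher, 61 lower), 10 on intron reads, 15 with a change of 1 or more on the log2 scale and a mean TPM of 1 or more, and 0 with quinpirole replicate 1 added (76 at an unadjusted p under 0.05). The other settings gave 18 to 37, among them 27 with DESeq2's size factors and 37 with DESeq2's Wald test (34 higher, 3 lower). Of the 27 genes, 14 were called in all 15 settings other than intron reads and added replicate 1, and 18 without each library in turn. EGR1 was lost with DESeq2's Wald test, on total gene reads and without water replicate 2 or 3, and FOS in these and without quinpirole replicate 2. Quinpirole against SKF82958 called 0 genes, but 2 with DESeq2's Wald test, 110 with no filter, 1 with at least 10 exon reads in every library, 1 on total gene reads and 0 to 40 with a library left out (40 without quinpirole replicate 3). Against 1 µM dopamine the 50 genes became 381 with DESeq2's Wald test, 150 with no filter, 80 with at least 10 exon reads in every library, 0 with quinpirole replicate 1 and 7 to 309 with a library left out (7 without quinpirole replicate 2, 309 without dopamine replicate 2). Against 1 mM dopamine the 3722 became 10719 on total gene reads, 154 with quinpirole replicate 1 and 2732 to 4002 with a library left out. Leaving out SKF82958, dopamine and PBS libraries, and the fits on intron reads and without mitochondrially encoded genes, were chosen after seeing the data. Signs turned for IER2 (-0.36) and AC242842.3 (-0.032) on intron reads, for AC242842.3 against 1 mM dopamine on total gene reads (-0.31) and for MT-CO1 when a quinpirole library was left out (-0.31 without replicate 2, 0.49 without replicate 3). The cause was not tested. The replicate numbers are shared by 2 libraries a group and the differences of replicates 2 and 3 correlated at -0.0622 over 11595 genes, so that the samples share only a number. With a replicate block 31 genes were called against water (26 higher, 24 of the 27), 0 against SKF82958, 35 against 1 µM and 3369 against 1 mM dopamine.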
